A study of Mus musculus with 12 samples.

Results

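The lysyl oxidases and the enzymes that hydroxylate collagen were examined in primary mouse hepatocytes labelled as knockout (KO) or control for both REV-ERB nuclear receptors. The 9 genes were chosen by family and picked by gene name from a table of 37991 genes: Loxl4, Lox, Loxl1 and Loxl2 among the lysyl oxidases, Plod1, Plod2 and Plod3 among the lysyl hydroxylases, and P4ha1 and P4ha2, which encode prolyl 4-hydroxylase alpha subunits. Loxl4 was included because it was already known to be higher in the KO-labelled cells of these same libraries. Its genotype values are therefore a description without a test, while the other 8 genes entered by family.

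All cells came from male mice aged 10 weeks whose Nr1d1 (REV-ERBα) and Nr1d2 (REV-ERBβ) alleles were floxed. The mice received AAV8 with the TBG promoter, which is active in hepatocytes, driving Cre and GFP (KO-labelled) or GFP alone (control), and hepatocytes were isolated with collagenase 2 weeks later and plated on collagen. The 4 groups of 3 libraries were KO-labelled cells exposed for 8 h to 10 µM SR9009, a synthetic REV-ERB ligand, KO-labelled cells in DMSO, control cells in SR9009 and control cells in DMSO. No group carried Cre without loxP sites, so an effect of Cre and loss of REV-ERB cannot be told apart. The labels do not say whether replicates came from separate mice, so a p-value reflects no more than the spread among libraries, which may be technical.

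Collagen chains are modified in the endoplasmic reticulum before they fold. Prolyl 4-hydroxylases, tetramers of alpha subunits and P4hb, make the hydroxyproline that holds the triple helix together, and lysyl hydroxylases (Plod) make the hydroxylysine that carries sugars and takes part in crosslinks. Lysyl oxidases act outside the cell: they are copper enzymes that oxidise lysine side chains of collagen and elastin so that fibres become crosslinked. In the injured liver most fibrillar collagen is made by stellate cells and fibroblasts rather than by hepatocytes. REV-ERBα and REV-ERBβ repress transcription through ROR response elements and form an arm of the circadian clock.

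Levels are in FPKM, fragment counts scaled by transcript length and library size, which are per length and can be set side by side between genes. The libraries had relative depths of 55.5% to 100% of the deepest, and 10611 to 10932 genes reached 1 FPKM in each. Same-group libraries correlated across genes with r of 0.982 to 0.992 on the log2 scale. Whole-gene Nr1d1 levels averaged 17.7 ± 0.459 FPKM in KO-labelled DMSO cells and 18.5 ± 0.412 FPKM in control DMSO cells (SD, n = 3 each). Nr1d2 averaged 16.2 ± 0.0949 FPKM in KO-labelled DMSO cells and 15.3 ± 1.87 FPKM in control DMSO cells. Which exons Cre removes is not stated in the labels, and a whole-gene level of this kind is no check of a floxed deletion or of the labels. Hepatocyte markers dominated, and 9 of 10 listed markers were matched by symbol, with summed levels of 30752 to 37443 FPKM over the 12 libraries; in KO-labelled against control DMSO cells 4 of the 9 rose and 1 fell, where 11.7% of all tested genes rose and 8.32% fell.

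The 250 bases upstream of the gene start are shown for Loxl4, the gene of this family that set the genotypes furthest apart, and for P4ha1 and P4ha2, which both fell in KO-labelled DMSO cells. The sequences are from RefSeq on GRCm38.p6, a later build than the mm9 of the deposited coordinates, and 5 of the 9 genes were matched. Each is read 5′ to 3′ on the gene's strand, and capitals mark ACGTG on either strand. ACGTG is a form of the core of the element bound by hypoxia-inducible factors (HIF). The form GCGTG was not searched and stays in lower case where it occurs.
Loxl4, chr19:42612807-42613056, minus strand: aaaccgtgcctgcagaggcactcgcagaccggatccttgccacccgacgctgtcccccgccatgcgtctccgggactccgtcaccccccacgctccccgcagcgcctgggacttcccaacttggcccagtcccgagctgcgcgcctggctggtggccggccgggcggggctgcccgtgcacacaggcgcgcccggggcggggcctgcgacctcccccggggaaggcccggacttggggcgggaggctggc
P4ha1, chr10:59323046-59323295, plus strand: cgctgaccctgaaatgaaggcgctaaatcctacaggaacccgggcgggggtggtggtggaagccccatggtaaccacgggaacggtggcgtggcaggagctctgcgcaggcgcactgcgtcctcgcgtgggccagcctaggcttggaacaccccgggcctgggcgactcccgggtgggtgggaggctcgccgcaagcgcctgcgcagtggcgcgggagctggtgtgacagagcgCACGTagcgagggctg
P4ha2, chr11:54100674-54100923, plus strand: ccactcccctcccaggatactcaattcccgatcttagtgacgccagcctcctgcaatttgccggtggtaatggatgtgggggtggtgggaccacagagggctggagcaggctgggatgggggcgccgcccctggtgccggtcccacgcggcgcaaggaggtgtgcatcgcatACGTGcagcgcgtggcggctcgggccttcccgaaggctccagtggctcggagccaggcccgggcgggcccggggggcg
ACGTG was found once upstream of P4ha1, P4ha2 and Plod3, beginning 16, 78 and 54 bases before the start, and not upstream of Loxl4 or Plod1. It occurs in 16.6% of 32851 windows of the same length. The ROR element half-site AGGTCA, searched on both strands, was in none of the 5 windows and in 14.0% of all. The E-box CACGTG, which contains ACGTG, was in none of the 5 and in 6.0% of all. These matches leave out the GCGTG form of the HIF core, and they describe letters in a short window and not binding. GC content was 76.0% upstream of Loxl4, 69.6% upstream of P4ha1 and 70.0% upstream of P4ha2, beside a median of 52.4% over all windows.

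Loxl4 (ENSMUSG00000025185, minus strand of mm9 chromosome 19, 42668472 to 42687303) encodes a secreted lysyl oxidase with scavenger receptor domains. Its level was 20.4, 18.1 and 16.9 FPKM in the KO-labelled DMSO libraries, against 0.703, 0.673 and 0.862 FPKM in the control DMSO libraries. All KO-labelled libraries lay far above all control libraries, a ratio of means of 24.8. In SR9009 the level was 15.4, 17.4 and 16.9 FPKM in KO-labelled libraries, against 1.07, 0.784 and 0.413 FPKM in control libraries, a ratio of means of 21.9. Again no library of one genotype came near those of the other. The values that put Loxl4 among the genes tested came from the 6 KO-labelled libraries and 1 control SR9009 library, the 7 of 12 that reached 1 FPKM.

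The same values place Loxl4 among other genes, as a description only. It exceeded 67.8% to 72.0% of the 11213 tested genes in KO-labelled DMSO libraries, against 2.04% to 3.28% in control DMSO libraries. In SR9009 it exceeded 65.0% to 68.6% of them in KO-labelled libraries, against 0.847% to 6.90% in control libraries. Its low place in control libraries follows from the filter, which Loxl4 passed almost wholly through KO-labelled libraries, and from the values that chose it.

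**Figure D1:**
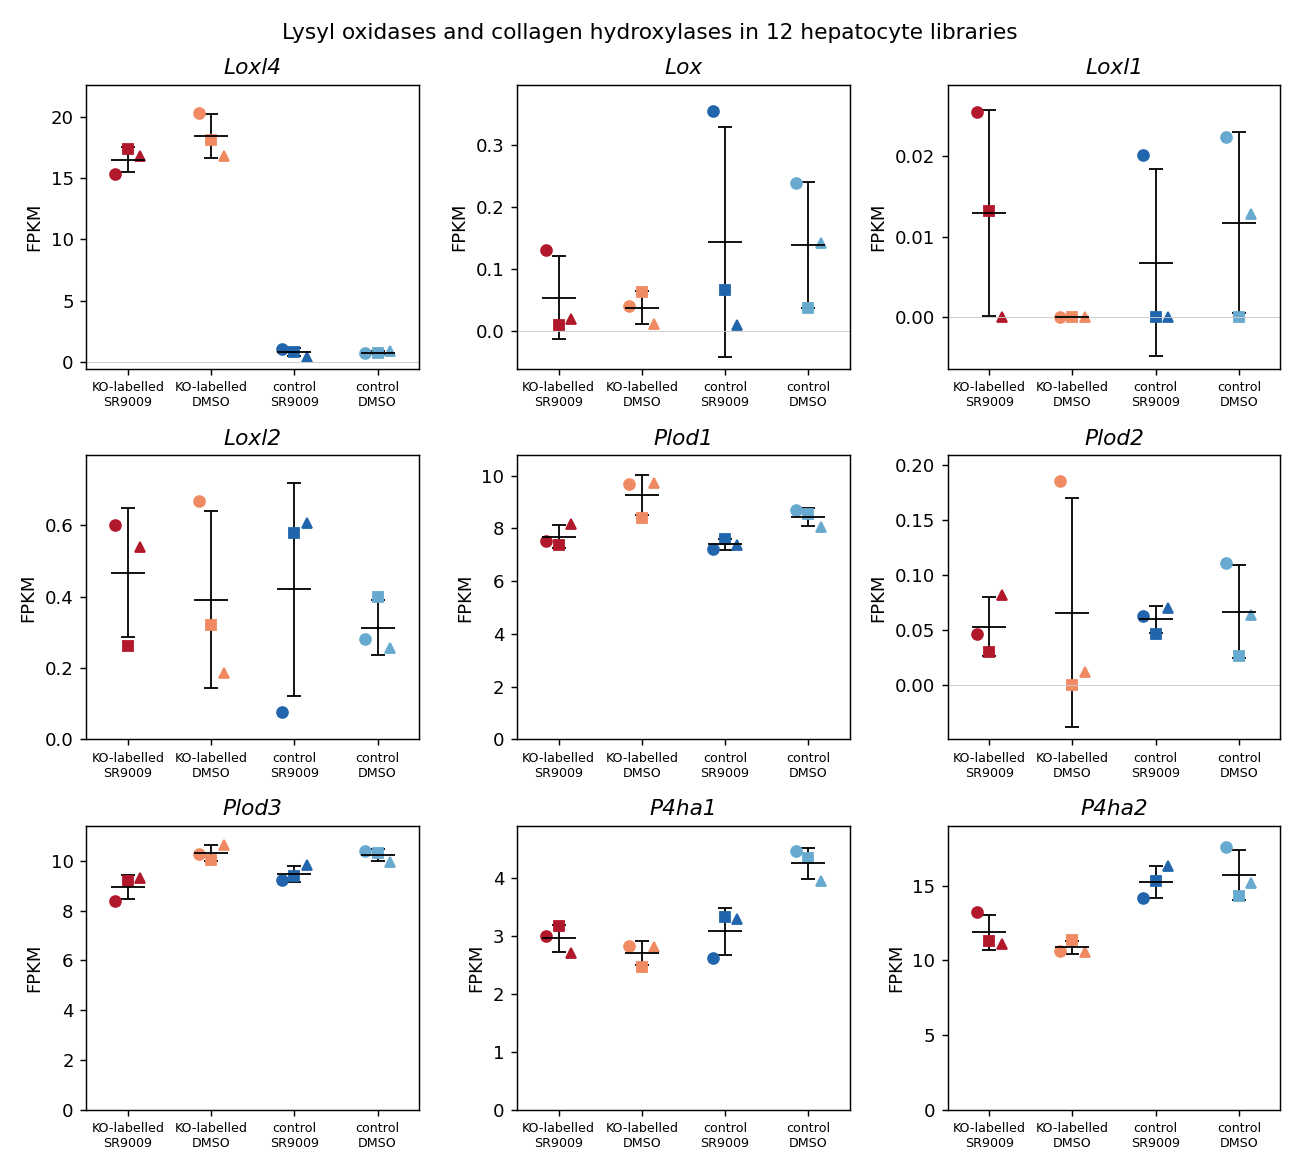
FPKM of each of the 9 genes by group, each panel on its own linear scale; each symbol is a library (circle, square and triangle for replicates 1, 2 and 3), and the bars give the mean ± SD, n = 3 per group. Loxl4 sits at 15.4 to 20.4 FPKM in the KO-labelled libraries and at 0.413 to 1.07 FPKM in the control libraries, while P4ha1 and P4ha2 are lower in KO-labelled than in control DMSO cells.

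SR9009 did not measurably move Loxl4. In KO-labelled cells it averaged 16.5 ± 1.04 FPKM with SR9009 and 18.5 ± 1.78 FPKM with DMSO (SD, n = 3 each), and these libraries overlapped. The log2 difference was -0.15 (95% interval -0.43 to 0.14, limma adjusted p = 0.552). In control cells it averaged 0.756 ± 0.330 FPKM with SR9009 and 0.746 ± 0.102 FPKM with DMSO, a log2 difference of -0.01 (95% interval -0.29 to 0.28, limma adjusted p = 0.987). The SR9009 effect did not differ measurably between genotypes, KO-labelled minus control -0.14 (95% interval -0.54 to 0.26, limma adjusted p = 0.931). These log2 differences are on the log2(FPKM + 1) scale, which compresses changes of low genes such as Loxl4 in control cells. All of these comparisons reuse libraries whose genotype values chose the gene. Loxl4 also passed the filter almost wholly through KO-labelled libraries.

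The other lysyl oxidases were close to silent. Lox, the founding member of the family, stood at 0.00987 to 0.131 FPKM in KO-labelled SR9009 cells, 0.0104 to 0.0632 FPKM in KO-labelled DMSO cells, 0.00964 to 0.356 FPKM in control SR9009 cells and 0.0362 to 0.239 FPKM in control DMSO cells. The groups overlapped throughout. Loxl1, which acts mainly on elastic fibres, was at 0 in 7 of 12 libraries and never above 0.0255 FPKM; scaled by depth, its values were 0, 1 or 2 multiples of one step. Loxl2, a crosslinker of the basement membrane collagen IV, stood at 0.0768 to 0.668 FPKM over all libraries. The whole Loxl2 gene lies inside Gm16867 on the opposite strand (86663 bases shared), so without a known strand setting its signal cannot be separated from that gene, which averaged 1.36 FPKM. Two-sided exact permutation tests on Lox, Loxl1, Loxl2 and Plod2 gave p between 0.3 and 1 in 16 comparisons, where 0.1 is the smallest p that 3 against 3 libraries allow at any level. These tests could not pass 0.05 and say nothing on whether the groups differ.

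Loxl4 made up nearly all lysyl oxidase transcript in KO-labelled cells. Of the FPKM summed over the 4 genes, it was 96.6% to 98.8% in KO-labelled DMSO libraries, against 56.4% to 67.7% in control DMSO libraries. In SR9009 it was 95.3% to 98.4% in KO-labelled libraries, against 40.1% to 70.3% in control libraries. The summed level itself was 17.1 to 21.1 FPKM in KO-labelled DMSO libraries, against 1.11 to 1.27 FPKM in control DMSO libraries. The other 3 genes together contributed 0.197 to 0.708 FPKM in KO-labelled DMSO libraries, against 0.411 to 0.543 FPKM in control DMSO libraries, ranges that overlap. These shares carry the Loxl4 values that chose the gene and are a description.

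No genotype difference passed the test for the lysyl hydroxylases. Plod1 (mm9 chromosome 4, 147283862 to 147310876), which hydroxylates lysines of the collagen helix, was at 9.66, 8.39 and 9.73 FPKM in KO-labelled DMSO libraries, against 8.68, 8.54 and 8.03 FPKM in control DMSO libraries. The groups overlapped, with a log2 difference of 0.12 (95% interval -0.05 to 0.29, limma adjusted p = 0.309). Plod3 (mm9 chromosome 5, 137462889 to 137472518), which in addition transfers sugars to hydroxylysine, was at 10.3, 10.0 and 10.6 FPKM in KO-labelled DMSO libraries, against 10.4, 10.3 and 9.94 FPKM in control DMSO libraries. Its log2 difference was 0.01 (95% interval -0.14 to 0.16, limma adjusted p = 0.936), and its sign turned under quantile scaling (-0.03). In SR9009 the log2 differences between genotypes were 0.05 for Plod1 (limma adjusted p = 0.710) and -0.07 for Plod3 (limma adjusted p = 0.485). Plod2, the telopeptide lysyl hydroxylase of fibrotic tissue, never exceeded 0.186 FPKM. Plod3, at 9.74 FPKM on average, shares 1003 bases with Znhit1 on the opposite strand, at 26.8 FPKM, and the 2 genes cannot be separated without a known strand setting.

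In both genotypes all SR9009 libraries lay below all DMSO libraries for Plod1 and for Plod3, but neither gene passed the threshold. Plod1 was at 7.50, 7.38 and 8.18 FPKM in KO-labelled SR9009 libraries, against the KO-labelled DMSO values given above, a log2 difference of -0.24 (limma adjusted p = 0.0773). In control SR9009 libraries it was at 7.21, 7.60 and 7.37 FPKM, a log2 difference of -0.17 from control DMSO (limma adjusted p = 0.241). Plod3 was at 8.40, 9.17 and 9.30 FPKM in KO-labelled SR9009 libraries, a log2 difference of -0.18 from KO-labelled DMSO (limma adjusted p = 0.116). These shifts are small beside the level of either gene. In control SR9009 libraries Plod3 was at 9.21, 9.39 and 9.83 FPKM, a log2 difference of -0.10 from control DMSO (limma adjusted p = 0.434). Such a complete separation downwards occurred in 15.4% of tested genes in KO-labelled cells and in 14.2% in control cells.

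The prolyl 4-hydroxylase alpha subunits fell in KO-labelled DMSO cells. P4ha1 (mm9 chromosome 10, 58786044 to 58836052) encodes the catalytic alpha subunit of the type I enzyme. It was at 2.82, 2.47 and 2.82 FPKM in KO-labelled DMSO libraries, against 4.46, 4.35 and 3.95 FPKM in control DMSO libraries. The mean fell by 36.5% (log2 difference -0.51, SE 0.10, limma adjusted p = 0.00372). P4ha2 (mm9 chromosome 11, 53913597 to 53945167), the alpha subunit of the type II enzyme, was at 10.7, 11.3 and 10.6 FPKM in KO-labelled DMSO libraries, against 17.6, 14.3 and 15.2 FPKM in control DMSO libraries. Its mean fell by 30.8% (log2 difference -0.49, SE 0.09, limma adjusted p = 0.00253).

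Of the 4 genes tested besides Loxl4, 0 were higher and 2 lower in KO-labelled DMSO cells, where 11.7% of all tested genes were higher and 8.32% lower. Their median log2 difference was -0.24, beside 0.04 over all tested genes. In SR9009, 0 were higher and 1, P4ha2, was lower, where 12.9% of all tested genes were higher and 7.43% lower; the median was -0.06, beside 0.06 over all. P4ha2 was at 13.2, 11.3 and 11.1 FPKM in KO-labelled SR9009 libraries, against 14.2, 15.3 and 16.3 FPKM in control SR9009 libraries, so that the mean fell by 22.1% (log2 difference -0.34, limma adjusted p = 0.0211). That call was lost without KO-labelled SR9009 library 2 (adjusted p = 0.0800) or 3 (0.0854), without control SR9009 library 3 (0.0636), and when limma was fitted to these 6 libraries alone (0.0598).

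P4ha1 did not show the genotype difference in SR9009. It was at 3.01, 3.17 and 2.70 FPKM in KO-labelled SR9009 libraries, against 2.62, 3.33 and 3.30 FPKM in control SR9009 libraries. The groups overlapped (log2 difference -0.04, 95% interval -0.26 to 0.18, limma adjusted p = 0.817). In control cells, P4ha1 fell by 27.6% with SR9009 relative to DMSO (log2 difference -0.37, limma adjusted p = 0.0432), where 4.55% of all tested genes were lower. In KO-labelled cells the log2 difference with SR9009 was 0.10 (limma adjusted p = 0.620). The test of whether these SR9009 effects differ gave 0.46, KO-labelled minus control (95% interval 0.15 to 0.77, unadjusted p = 0.00674), which did not pass over all genes (limma adjusted p = 0.599).

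The SR9009 call on P4ha1 in control cells was fragile. It was lost in 5 of 6 fits that left out 1 of the libraries compared (adjusted p up to 0.144) and under 6 other settings, among them all genes without a filter (0.0744), quantile scaling (0.0742) and rescaling to TPM (0.0505). P4ha2 did not move measurably with SR9009, with log2 differences of 0.12 in KO-labelled cells (limma adjusted p = 0.502) and -0.04 in control cells (limma adjusted p = 0.876). Over all 5 tested genes, SR9009 called 0 in KO-labelled cells, where limma called 9.87% of all tested genes and 2 of the 5 had an unadjusted p under 0.05. It called 1 of 5 in control cells, where 8.24% of all tested genes were called. The difference between the SR9009 effects called 0 of 5, where 0.0268% of all tested genes were called and 1 of the 5 had an unadjusted p under 0.05. Loxl4 is among the 5 in each of these counts, and it passed the filter almost wholly through KO-labelled libraries.

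**Figure D2:**
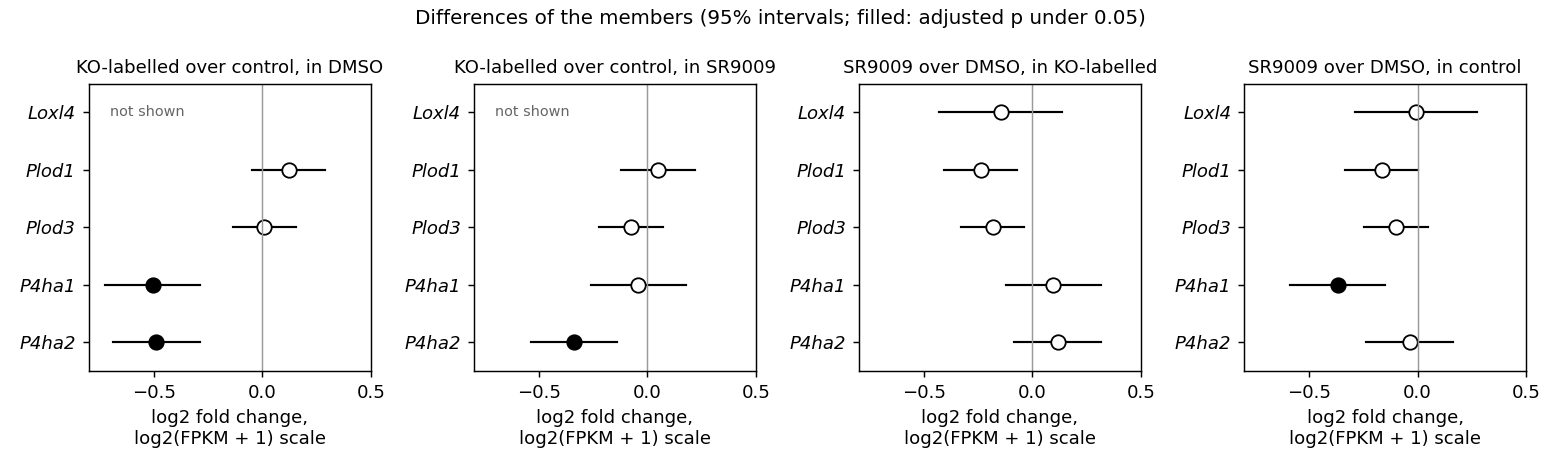
Log2 fold changes with 95% intervals from limma for the 5 tested genes, in each comparison; filled points have an adjusted p under 0.05, and the Loxl4 genotype values are left out because they chose the gene. P4ha1 and P4ha2 lie below 0 in KO-labelled over control DMSO cells (-0.51 and -0.49), and P4ha1 lies near 0 in SR9009 (-0.04).

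The order of mean levels in DMSO cells differed between genotypes at its top through Loxl4 alone. Its genotype values chose it, so that change is a description. In KO-labelled DMSO cells Loxl4 came first, followed by P4ha2 and Plod3, whose libraries overlapped, then Plod1 and then P4ha1. In control DMSO cells P4ha2 came first, followed by Plod3, Plod1, P4ha1, Loxl4 and Loxl2, each without overlap with its neighbour. Below them Lox and Plod2 overlapped. In control SR9009 cells Loxl4 and Loxl2 overlapped as well, since Loxl2 reached 0.607 FPKM there and Loxl4 was as low as 0.413 FPKM.

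P4ha1 and P4ha2 are textbook targets of HIF, and a list of other HIF targets was read beside them. Whether HIF had a part in the falls of P4ha1 and P4ha2 was not tested. Of 18 tested genes of a 20-gene list, 12 fell and 1 rose in KO-labelled DMSO cells, where 8.32% of all tested genes fell and 11.7% rose (median log2 difference -0.43, beside 0.04 over all tested genes). Egln3, the oxygen-sensing prolyl hydroxylase that marks HIF for degradation, averaged 8.99 ± 0.218 FPKM in KO-labelled DMSO cells and 18.8 ± 0.775 FPKM in control DMSO cells (limma adjusted p = 5.90e-07). Adm, a vasodilator peptide, averaged 10.6 ± 1.69 FPKM in KO-labelled DMSO cells and 31.5 ± 5.06 FPKM in control DMSO cells (limma adjusted p = 3.51e-05). The gene that rose was Ndrg1, a stress-responsive gene, at 14.9 ± 0.404 FPKM in KO-labelled DMSO cells and 6.14 ± 0.383 FPKM in control DMSO cells (limma adjusted p = 1.69e-07). In SR9009, 10 of 18 fell and 1 rose in KO-labelled against control cells, where 7.43% of all tested genes fell and 12.9% rose (median -0.26, beside 0.06). With SR9009 against DMSO, 4 rose and 3 fell in KO-labelled cells, where 9.87% of all tested genes were called. In control cells 4 rose and 4 fell, where 8.24% were called, but without single libraries only 2 to 3 rose and 2 to 4 fell, and 1 to 4 rose over the other settings.

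Genes that act beside these enzymes rose in KO-labelled cells. Of 7 tested genes of a 24-gene list on collagen folding, transport and processing, 5 rose and 0 fell in KO-labelled cells, in DMSO and again in SR9009, where 11.7% and 12.9% of all tested genes rose. Their median log2 differences were 0.34 in DMSO and 0.39 in SR9009, beside 0.04 and 0.06 over all tested genes. P4hb, the beta subunit of prolyl 4-hydroxylase and itself a protein disulfide isomerase, averaged 471 ± 16.6 FPKM in KO-labelled DMSO cells and 379 ± 8.66 FPKM in control DMSO cells (limma adjusted p = 0.000515). Bmp1, the protease that trims procollagen and activates lysyl oxidase precursors, averaged 35.8 ± 4.16 FPKM in KO-labelled DMSO cells and 16.7 ± 0.633 FPKM in control DMSO cells (limma adjusted p = 2.66e-05). Glt25d1, a collagen galactosyltransferase, Ppib, a prolyl isomerase of the endoplasmic reticulum, and Lepre1, a prolyl 3-hydroxylase, were the others that rose. Crtap and Sec23a did not pass. Serpinh1, the collagen chaperone HSP47, never exceeded 0.462 FPKM.

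P4hb, which also works outside this enzyme, was far in excess of the alpha subunits. The ratio of P4hb to the summed P4ha1 and P4ha2 FPKM was 33.6 to 36.1 in KO-labelled DMSO libraries, against 17.5 to 20.5 in control DMSO libraries. In SR9009 it was 25.2 to 31.5 in KO-labelled libraries, against 17.2 to 20.0 in control libraries. The ratio recombines the P4hb, P4ha1 and P4ha2 values and is no separate result. The summed alpha subunits stood at 13.4 to 13.8 FPKM in KO-labelled DMSO libraries, against 18.7 to 22.0 FPKM in control DMSO libraries. P4ha1 was 15.6% to 23.3% of that sum over all libraries, so P4ha2 was the main alpha subunit transcript.

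Of a list of collagens and other matrix genes, 4 of 18 were tested, and 2 rose in KO-labelled cells and 0 fell, in DMSO (11.7% of all tested genes rose) and in SR9009 (12.9%). Col18a1, a collagen of the liver basement membrane zone, averaged 145 ± 1.79 FPKM in KO-labelled DMSO cells and 88.6 ± 0.583 FPKM in control DMSO cells (limma adjusted p = 1.36e-06). Col4a2, a chain of collagen IV, was at 6.20, 4.58 and 4.23 FPKM in KO-labelled DMSO libraries, against 2.25, 1.86 and 2.52 FPKM in control DMSO libraries (limma adjusted p = 0.000705). Col4a1, another chain of collagen IV at a higher level, did not pass. It averaged 28.0 FPKM in KO-labelled DMSO cells and 25.4 FPKM in control DMSO cells (limma adjusted p = 0.240). In SR9009 its limma adjusted p between genotypes was 0.224. The fibrillar collagens stayed low: Col1a1, Col1a2 and Col3a1 never exceeded 0.418, 0.598 and 0.132 FPKM. The high Loxl4 level of KO-labelled cells thus stood beside little fibrillar collagen transcript.

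**Figure D3:**
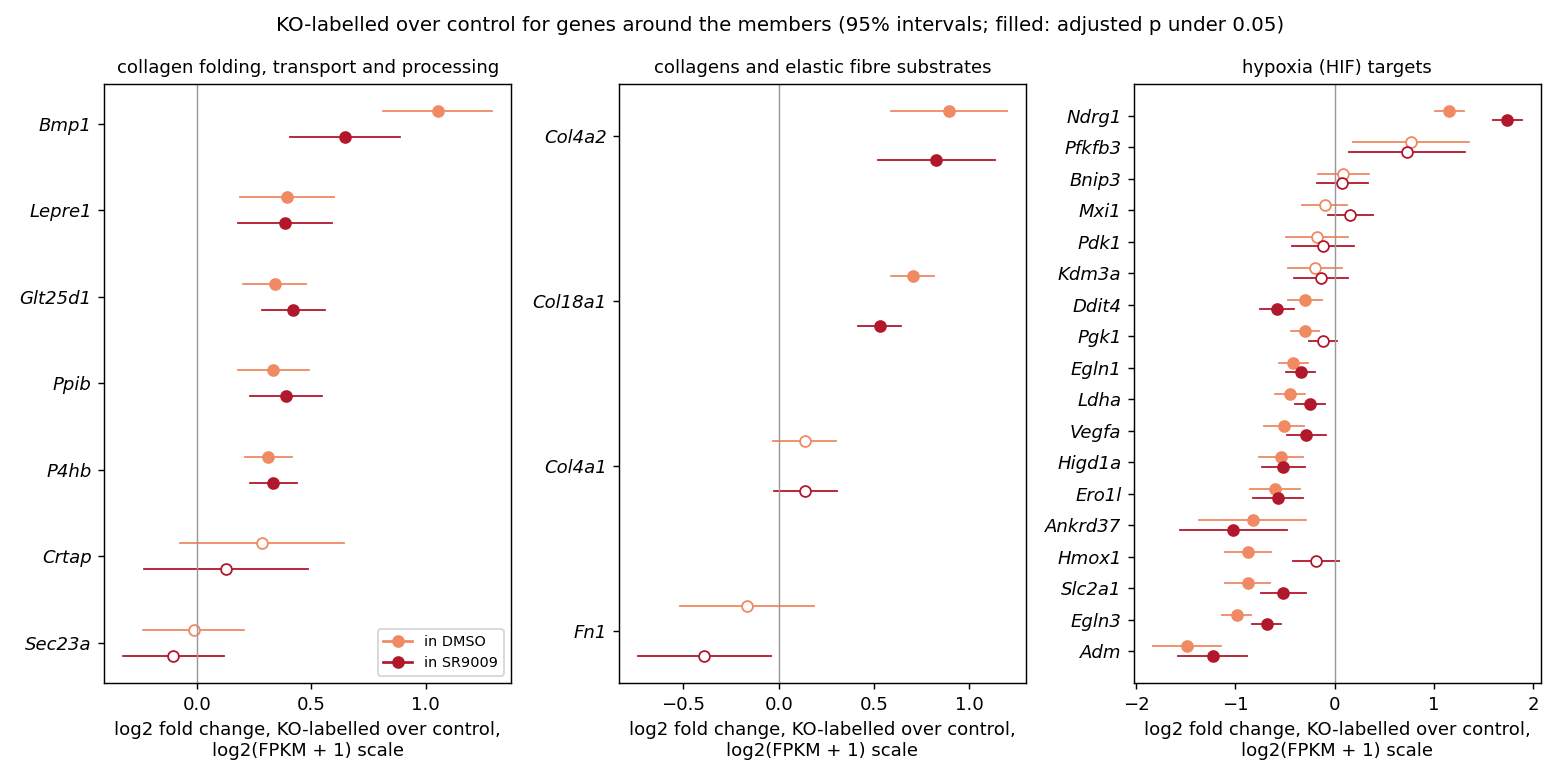
Log2 fold changes, KO-labelled over control, with 95% intervals from limma for the tested genes of the 3 surrounding lists, in DMSO and in SR9009; filled points have an adjusted p under 0.05. Most HIF targets lie below 0 (12 fell in DMSO and 10 in SR9009), and 5 collagen folding genes passed as higher in both treatments.

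Markers of other liver cells were measured beside these results. Of 14 stellate cell and fibroblast markers, 13 never reached 1 FPKM, all but Reln, and their summed level was 2.20 to 2.90 FPKM in KO-labelled DMSO libraries, against 1.96 to 2.31 FPKM in control DMSO libraries. In SR9009 the sum was 2.13 to 2.46 FPKM in KO-labelled libraries, against 1.83 to 3.26 FPKM in control libraries, so these markers stayed low throughout. Summed endothelial markers were 12.2 to 18.1 FPKM in KO-labelled DMSO libraries, against 8.25 to 9.27 FPKM in control DMSO libraries, and in SR9009 12.7 to 12.9 FPKM in KO-labelled libraries, against 8.93 to 10.0 FPKM in control libraries. Of 4 endothelial markers tested, 3 rose in KO-labelled DMSO cells, where 11.7% of all tested genes rose, and 0 passed in SR9009, where 12.9% rose, while Kdr and Tek never reached 1 FPKM. Endothelial markers thus moved the same way as Loxl4, Col18a1, Col4a2 and the collagen folding genes that rose, and their part in these results was not tested. Summed Kupffer cell markers were 34.7 to 46.1 FPKM in KO-labelled DMSO libraries, against 47.8 to 59.7 FPKM in control DMSO libraries (1 of 8 tested rose and 4 fell, where 11.7% of all tested genes rose and 8.32% fell). The largest of them, Cd68, moved against the sum, at 23.7 ± 2.95 FPKM in KO-labelled DMSO cells and 18.3 ± 1.86 FPKM in control DMSO cells. Marco averaged 1.66 ± 0.462 and 9.52 ± 1.34 FPKM in these groups, and Emr1 1.09 ± 0.281 and 1.08 ± 0.0917 FPKM. Summed cholangiocyte markers were 29.3 to 39.1 FPKM in KO-labelled DMSO libraries, against 42.6 to 45.1 FPKM in control DMSO libraries (1 of 3 tested rose and 1 fell). Most of that sum was Spp1, at 24.4 ± 3.09 FPKM in KO-labelled DMSO cells and 39.9 ± 0.863 FPKM in control DMSO cells. Sox9 moved the other way, at 9.09 ± 1.37 FPKM in KO-labelled DMSO cells and 2.67 ± 0.532 FPKM in control DMSO cells (limma adjusted p = 1.57e-05), while Krt7, Epcam and Cldn7 never reached 1 FPKM. In SR9009 the Kupffer sum was 44.3 to 46.8 FPKM in KO-labelled libraries, against 49.6 to 52.8 FPKM in control libraries, and 1 of 8 tested rose and 1 fell. The cholangiocyte sum in SR9009 was 34.9 to 39.3 FPKM in KO-labelled libraries, against 40.7 to 63.1 FPKM in control libraries, and 1 of 3 tested rose and 2 fell, where 12.9% of all tested genes rose and 7.43% fell. Both sums, though not every marker in them, moved the same way as P4ha1, P4ha2 and most HIF targets, and their part in these results was not tested. No marker of any list was at 0 in all 12 libraries. In such bulk libraries, fewer cells of a type and less RNA per cell cannot be told apart.

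Genes patterned most like Loxl4 were ranked by Pearson r of log2(FPKM + 1) over the 12 libraries. The Loxl4 values split by genotype, so this measure favours any gene with a clean genotype difference, and 159 of 11212 genes exceeded 0.95. The nearest was Itih1 (r = 0.9982), a hyaluronan-binding heavy chain made by the liver, with Itih3 of the same family also near (0.9965). The clock activator Arntl (0.9963) averaged 6.49 ± 0.307 FPKM in KO-labelled DMSO cells and 0.214 ± 0.0796 FPKM in control DMSO cells. The steroid enzymes Cyp17a1 (0.9961) and Hsd17b6 (0.9945), the cytochrome P450 genes Cyp2f2 (0.9967) and Cyp2c44 (0.9947), whose families hold similar copies that can share reads, and the monooxygenase Moxd1 (0.9962) completed the nearest 8. Hsd17b6 averaged 268 ± 15.4 FPKM in KO-labelled DMSO cells and 31.2 ± 0.706 FPKM in control DMSO cells. The ranking says nothing of shared function or control.

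**Figure D4:**
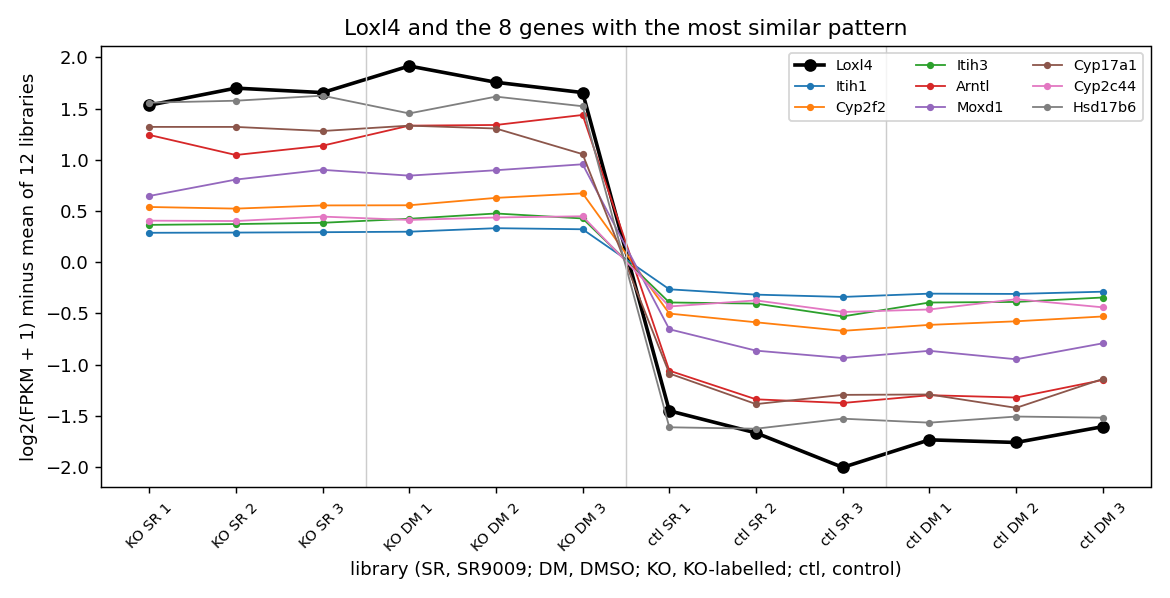
Level of Loxl4 and of the 8 genes with the highest Pearson r to it, by library (12 libraries, 3 per group), as log2(FPKM + 1) minus the mean of each gene over all libraries. All of them are high in the 6 KO-labelled libraries and low in the 6 control libraries.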

How the data were processed

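RNA sequencing libraries of plated hepatocytes were made from polyadenylated, ribosome-depleted RNA, per the labels' protocols. The submitters' processing notes name HISAT2, StringTie and the mm9 build; their versions, the annotation and any strand setting were not given in the sources used. The authors deposited 1 table of values per gene and library without naming a unit. FPKM was inferred for these deposited values since library sums differed (538521 to 604449) and low values of genes such as Loxl1 fell on steps. Other low genes, such as Lox, also had values between whole steps, and a link of step size to gene length was not tested. Read totals are not given, so relative depth was estimated from the ratios of low values between libraries. The labels abbreviate the compound's name in titles, and the treatment protocol writes SR9009.

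The values were analysed as log2(FPKM + 1). The 11213 genes that reached 1 FPKM in 3 or more libraries entered a group-means model over all 12 libraries in limma 3.58.1 (trend and robust, R 4.3.3), with Benjamini-Hochberg adjustment over all of them at 0.05; every adjusted p comes from this fit unless another setting is named beside it. The 4 members under the filter were tested by exact permutation of libraries (two-sided), and other genes under it were not tested. The fit was first tested on simulated data. The members and lists were chosen with earlier results of these data known. The naming rule took all 9 members, up to 4 genes of each list by smallest p and the 8 genes nearest to Loxl4 by r; Lepre1, Crtap, Sec23a, Serpinh1, the fibrillar collagens, the markers and the neighbours of Loxl4 were named outside it, after their values were seen. Alternatives covered the pseudocount, filter, scaling, model, libraries left out and a replicate block. Replicate numbers did not pair libraries.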

Additional observations from a re-analysis of the deposited data

How the results depend on the processing

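The falls of P4ha1 and P4ha2 in KO-labelled DMSO cells passed the threshold under every alternative in which they were tested, with leave-one-out adjusted p of 0.00872 to 0.0188 for P4ha1 and 0.00359 to 0.0129 for P4ha2 (limma). The count of members called there, 2, was 2 in every leave-one-out fit and 1 under a filter of 5 FPKM, which removes P4ha1. In SR9009 the count of 1 became 0 when limma was fitted to the compared libraries alone, and ranged from 0 to 1 without single libraries. The count of 1 for SR9009 in control cells became 0 without a filter, with the 5 FPKM filter, under quantile scaling, with TPM, in the fit to the compared libraries alone, with a replicate block and without the 2 shallowest libraries, and ranged from 0 to 1 without single libraries. Replicate numbers did not pair libraries: 1 of 18 same-number pairs correlated above 0.1 (-0.11 to 0.12). With the replicate block the SR9009 difference of P4ha1 in control cells had an adjusted p of 0.0762, and the block called 0 genes for the difference between SR9009 effects.

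Over all genes, KO-labelled against control called 2240 in DMSO (1602 to 1749 without single libraries) and 2283 in SR9009 (1518 with the compared libraries alone, 1645 to 2195 without single libraries). SR9009 called 1107 in KO-labelled cells (604 to 857) and 924 in control cells (376 with the compared libraries alone, 605 without the 2 shallowest, 531 to 920 without single libraries). The difference between SR9009 effects called 3 genes, and 1 without a filter, 1 under quantile scaling, 1 without the 2 shallowest libraries, 1 without trend and robust variance, and 0 to 5 without single libraries. 

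Signs turned only for differences that had not passed: under quantile scaling Plod3 in KO-labelled over control DMSO cells (-0.027; -0.011 to 0.028 without single libraries), Plod1 in KO-labelled over control SR9009 cells (-0.022) and Loxl4 with SR9009 in control cells (0.015; -0.14 to 0.14 without single libraries); with TPM P4ha1 in KO-labelled over control SR9009 cells (0.010; -0.13 to 0.007); without the 2 shallowest libraries P4ha2 with SR9009 in control cells (0.014; -0.095 to 0.044) and the Loxl4 difference between SR9009 effects (0.058). TPM moved the median of all genes to 0.09 in DMSO and 0.12 in SR9009 (KO-labelled over control), beside 0.04 and 0.06. The Loxl4 log2 difference between genotypes was 3.41 to 4.46 in DMSO and 3.30 to 4.36 in SR9009 over the other settings, highest with a pseudocount of 0.1. Over all alternatives, added after seeing the data for these lists, 10 to 12 HIF targets fell and 4 to 5 collagen folding genes rose in KO-labelled DMSO cells, and 7 to 10 fell and 4 to 6 rose in SR9009. Levels under about 1 FPKM rest on few fragments.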

Other observations

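Genes next to Loxl4 on chromosome 19 were looked up after the values were seen. Of 8 gene models within 200 kb, 3 were tested, and all 3 were higher in KO-labelled DMSO cells, where 11.7% of all tested genes were higher. D19Ertd386e, 1639 bases away on the opposite strand, averaged 5.06 FPKM in KO-labelled DMSO cells and 3.72 FPKM in control DMSO cells (limma adjusted p = 0.0298), a call lost without a filter (0.0564), under quantile scaling (0.0754), in the fit to the compared libraries alone (0.0643), without the 2 shallowest libraries (0.0601) and in 4 of 6 leave-one-out fits (up to 0.120). Pyroxd2, 113045 bases away, averaged 11.8 FPKM in KO-labelled DMSO cells and 4.52 FPKM in control DMSO cells (limma adjusted p = 2.43e-06). Hps1, 142292 bases away, averaged 7.34 FPKM in KO-labelled DMSO cells and 5.61 FPKM in control DMSO cells (limma adjusted p = 0.00912).

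Of the 4 tested collagens and other matrix genes, 2 were lower with SR9009 in KO-labelled cells, where 9.87% of all tested genes were called. In control cells 1 was lower, where 4.55% of all tested genes were lower. Col4a1, a chain of collagen IV, fell with SR9009 in both genotypes. It averaged 19.2 ± 1.25 FPKM in KO-labelled SR9009 cells and 28.0 ± 1.03 FPKM in KO-labelled DMSO cells (SD, n = 3 each, limma adjusted p = 0.00110). In control cells it averaged 17.4 ± 1.18 FPKM with SR9009 and 25.4 ± 1.85 FPKM with DMSO (limma adjusted p = 0.00134). Col18a1 was lower with SR9009 in KO-labelled cells (limma adjusted p = 0.0100) but did not pass in control cells (0.450). Col4a2, also a chain of collagen IV, passed in neither (limma adjusted p = 0.537 in KO-labelled and 0.754 in control cells). Of the 7 tested collagen folding genes, 3 passed with SR9009 in KO-labelled cells, where 9.87% of all tested genes were called: Glt25d1 (limma adjusted p = 0.0176), Bmp1 (0.0296) and P4hb (0.0456), all lower. Without single libraries 0 to 1 passed: Bmp1 and P4hb were lost in 5 of 6 such fits and Glt25d1 in 3 of 6. In control cells 2 passed, where 4.55% of all tested genes were lower: Glt25d1 (limma adjusted p = 0.00524) and P4hb (0.0306), the second of which was lost in 5 of 6 such fits.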
